A study of Homo sapiens with 4 samples.

Results

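The heat shock factors HSF1, HSF2 and HSF4, the HSF1 regulators HSBP1, FBXW7 and SIRT1, and the HSF1 neighbours on chromosome 8, DGAT1 and BOP1, were examined in RNA-seq libraries of MCF10A cells. These 8 genes were chosen by name from the 63856 genes of the count table, with earlier results of these data known. MCF10A is a non-tumorigenic human breast epithelial line. Wild type (WT) cells were compared with HSF1-pLVX cells, which stably carry the HSF1 coding sequence from a lentiviral pLVX vector and were selected with puromycin, in 2 libraries of each group. All cells were grown in medium with horse serum, insulin, hydrocortisone, EGF and cholera toxin. No libraries of cells with the empty vector were analysed here, so the effects of HSF1, of the vector and of selection cannot be told apart. The study's methods call the replicates biological, while neither the methods nor the labels say whether they came from separate cultures or transductions, so p-values measure the spread between these libraries.

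Heat shock factors are transcription factors that bind heat shock elements, repeats of the letters GAA in alternating orientation, as trimers. HSF1 is the main factor of the heat shock response in mammals. In unstressed cells it is held by chaperones such as HSP90, and it is further controlled by phosphorylation, acetylation, SUMO and ubiquitin. HSF2 can form heterotrimers with HSF1 and is better known for roles in development, and HSF4 for its role in the lens. HSBP1 is a small protein that binds the trimerization domain of HSF1, FBXW7 is the substrate receptor of an SCF ubiquitin ligase that can target phosphorylated HSF1, and SIRT1 is a deacetylase that can prolong the binding of HSF1 to DNA. DGAT1 makes triglycerides from diacylglycerol, and BOP1 is a ribosome biogenesis factor of the large subunit.

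Stretches of genomic sequence upstream of the counted start of HSF2, HSF4 and SIRT1 are shown, read 5′ to 3′ from RefSeq promoter windows (GRCh38.p14). They are the proximal promoters of the 2 other heat shock factors and of a regulator called lower, a call lost in several alternatives. These 3 genes are also those whose windows hold the motif CACGTG. The capitals mark CACGTG, an E-box that reads the same on both strands.
HSF2 (chr6:122399301-122399545, plus strand): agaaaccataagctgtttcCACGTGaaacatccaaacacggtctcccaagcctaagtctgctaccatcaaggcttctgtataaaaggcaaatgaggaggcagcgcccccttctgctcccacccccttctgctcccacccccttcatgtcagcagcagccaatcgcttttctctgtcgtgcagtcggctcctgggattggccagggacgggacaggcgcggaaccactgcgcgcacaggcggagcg
HSF4 (chr16:67164495-67164680, plus strand): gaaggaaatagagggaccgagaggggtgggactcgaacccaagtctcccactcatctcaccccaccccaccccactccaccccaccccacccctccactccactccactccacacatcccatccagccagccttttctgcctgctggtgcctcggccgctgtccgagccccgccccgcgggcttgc
SIRT1 (chr10:67884406-67884668, plus strand): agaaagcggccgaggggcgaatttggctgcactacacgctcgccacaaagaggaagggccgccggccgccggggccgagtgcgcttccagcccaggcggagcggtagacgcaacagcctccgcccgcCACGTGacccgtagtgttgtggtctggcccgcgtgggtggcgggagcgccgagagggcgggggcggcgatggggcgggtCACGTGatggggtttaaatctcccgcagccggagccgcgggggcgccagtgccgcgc
The RefSeq windows, 300 bases each around an annotated start, were given for 5 of the 8 genes (HSF2, HSF4, HSBP1, FBXW7 and SIRT1), in 10 windows, some of which overlap. A pair of inverted heat shock units, GAANNTTC or TTCNNGAA, was found in 0 of these 10 windows and in 13.5% of all 35116 windows. The trimeric heat shock element, which is the pair with the third inverted unit added at the same spacing on either side, was found in 0 of the 10 and in 0.49% of all windows. These letters are therefore not in the windows, which says nothing about binding of HSF1 elsewhere. CACGTG, a motif chosen after the sequences were read, was found in 4 windows of 3 genes (HSF2, HSF4 and SIRT1) and in 7.26% of all windows. Because the motif was picked from these same sequences, this comparison is a description and no test. CACGTG was not found in the windows of HSBP1 and FBXW7, which are not shown. The HSF4 match lies across the counted start and so is not in capitals above.

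The libraries held 18688109 to 24184285 counts, and the 10 most abundant genes took 8.66 to 10.8% of them. Levels are given as CPM, counts scaled by library size with TMM factors, and differences between the groups were tested by edgeR's quasi-likelihood method, with Benjamini-Hochberg adjustment across 15830 genes left by a filter on low counts. An adjusted p of 0.05 was the threshold. At this threshold 32.7% of all tested genes were higher in HSF1-pLVX cells, 33.2% were lower, and 65.9% moved in either direction, so a call alone sets a gene apart from few others. Across all tested genes the log2 fold change had a median of 0.02 and quartiles of -0.55 and 0.62. With 2 libraries a side, 0.33 is the smallest p that an exact permutation test of a single gene can reach, and the test therefore relies on the spread of other genes.

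The breast epithelial label was checked against 10 markers, all of which were detected in all 4 libraries. Their summed level was 19713 to 19955 CPM in WT and 9140 to 9460 CPM in HSF1-pLVX cells. TP63 (log2 fold change 3.48), KRT5 (1.12) and ITGA6 (0.44) rose and the other 7 fell, among them KRT14 (-3.55), KRT8 (-3.24), KRT17 (-2.56), CDH1 (-1.43) and EPCAM (-1.36). Of 8 fibroblast markers 2 were tested, and the list summed to 7.88 to 10.9 CPM in WT and 13.9 to 15.0 CPM in HSF1-pLVX cells. COL1A1, most of the WT sum at 7.19 and 10.4 CPM, did not pass the threshold. Its log2 fold change was 0.19 (adjusted p = 0.353 in edgeR's quasi-likelihood test). DCN, the other one tested, held 1 and 3 counts in WT and 94 and 87 in HSF1-pLVX cells. The untested fibroblast markers held 10 counts or fewer in every library. The 8 leukocyte and endothelial markers summed to 2.42 to 3.20 CPM in WT and 13.1 to 14.4 CPM in HSF1-pLVX cells, most of it KDR, with PTPRC at 0 in all 4 libraries. All tested markers but COL1A1 moved with the group, as did most genes below, and the part of the markers in the results was not tested. In bulk libraries fewer cells with a transcript and less of it per cell cannot be told apart.

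All 8 genes passed the filter. Of these, 5 (HSF1, HSF4, FBXW7, HSF2 and BOP1) were higher in HSF1-pLVX cells, DGAT1 and SIRT1 were lower, and HSBP1 did not pass the threshold. The 7 genes called in either direction, of 8, stand beside 65.9% of all tested genes. HSF1, HSF4 and FBXW7 were higher by more than 2-fold, a change seen in 14.9% of all tested genes. The WT and HSF1-pLVX libraries did not overlap for any of the 8 genes, which was also the case for 83.1% of all tested genes. The 8 genes had a median log2 fold change of 0.59.

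**Figure D1:**
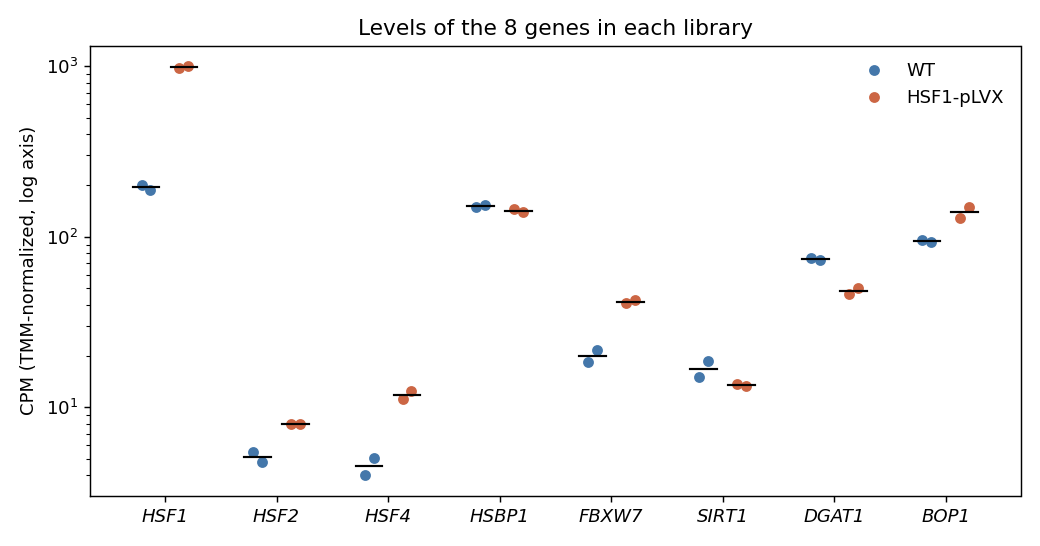
Level of each of the 8 genes in TMM-normalized CPM on a log axis, with 1 point per library (WT blue, HSF1-pLVX orange) and a black line at the group mean of 2 libraries. HSF1 lies at 189 to 200.4 CPM in WT and at 982 and 999 CPM in HSF1-pLVX cells, while HSF2 and HSF4 stay at or below 12.4 CPM in all 4 libraries.

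HSF1 (ENSG00000185122.10, plus strand, chr8:144291591-144314722 on hg38, 11 counted exon blocks) was measured at 200.4 and 189 CPM in WT replicates 1 and 2 and at 982 and 999 CPM in HSF1-pLVX replicates 1 and 2. Both HSF1-pLVX libraries were far above both WT libraries, and the replicates of each group differed by 1.06-fold or less. The mean rose 5.08-fold, from 194.8 ± 7.94 to 990.5 ± 11.5 CPM (SD, n = 2 each). On the log2 scale this was 2.35 ± 0.10 (SE), with a 95% confidence interval of 2.13 to 2.56. The adjusted p was 1.14e-10 in edgeR's quasi-likelihood test. This rise was the 417th of the 15830 tested genes in size. HSF1 took 0.019% of all counts in both WT libraries and 0.10% in both HSF1-pLVX libraries. The vector carries the coding sequence of HSF1, and counts per gene do not separate its transcript from that of the endogenous gene.

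HSF4 (ENSG00000102878.16, plus strand, chr16:67164681-67169945) held 75 and 94 counts in WT and 282 and 246 in HSF1-pLVX cells. Its levels were 3.995 and 5.06 CPM in WT and 11.2 and 12.4 CPM in HSF1-pLVX cells. Both HSF1-pLVX libraries lay above both WT libraries, and the WT replicates differed by 1.27-fold, the widest gap within a group among the 8 genes. The log2 fold change was 1.38 ± 0.16 (SE), with a 95% confidence interval of 1.03 to 1.73 and an adjusted p of 3.53e-06 in edgeR's quasi-likelihood test, a 2.61-fold rise of the mean. Of the counted exon bases of HSF4, 31.4% (1059 bases) are shared with ENSG00000265690, a gene on the same strand that held 2 and 0 counts in WT and 6 and 12 in HSF1-pLVX cells. How reads in shared bases were assigned is not stated, which leaves the level of HSF4 uncertain by that share.

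HSF2 (ENSG00000025156.12, plus strand, chr6:122399546-122433119) held 102 and 89 counts in WT and 199 and 158 in HSF1-pLVX cells, or 5.43 and 4.79 CPM against 7.93 and 7.95 CPM. The HSF1-pLVX libraries nearly coincided and lay above both WT libraries. The log2 fold change was 0.63 ± 0.16 (SE), with a 95% confidence interval of 0.28 to 0.99 and an adjusted p of 0.00347 in edgeR's quasi-likelihood test. With DESeq2's Wald test the adjusted p was 0.0663, so the call of HSF2 depends on the tool. HSF2 thus lay close to the upper quartile of all tested genes, and 75.6% of them had a lower log2 fold change.

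Levels of different genes were compared per length, as CPM divided by the counted exon length in kilobases (RPKM). This length covers all counted exons, 5307 bases for HSF1, whereas the vector carries only the coding sequence of HSF1. Per-length levels of HSF1 in HSF1-pLVX cells are therefore not on the same length basis as in WT. HSF1 made up 92.2 and 91.6% of the summed RPKM of HSF1, HSF2 and HSF4 in the WT libraries and 96.7 and 96.6% in the HSF1-pLVX libraries. The ratio of HSF1 to HSF2 was 18.8 and 20.1 in WT and 63.1 and 63.9 in HSF1-pLVX cells. The ratio of HSF1 to HSF4 was 31.9 and 23.8 in WT and 55.7 and 51.3 in HSF1-pLVX cells. HSF1 was thus the most abundant of the 3 factors before as well as after its overexpression, and both ratios were higher in each HSF1-pLVX library than in each WT library. The other listed HSF genes (HSF5, HSFX1, HSFX2, HSFX3 and HSFX4) held 3 counts or fewer in every library and were not tested.

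In WT cells the order of the RPKM means was HSF1 (36.7 ± 1.496), BOP1 (25.5 ± 0.68), DGAT1 (18.02 ± 0.34), HSBP1 (15.9 ± 0.27), SIRT1 (3.69 ± 0.57), FBXW7 (1.95 ± 0.23), HSF2 (1.89 ± 0.17) and HSF4 (1.34 ± 0.22; SD, n = 2). Among neighbours in this order, FBXW7 and HSF2 overlapped between libraries, and the other neighbours did not. In HSF1-pLVX cells the order of the RPKM means was HSF1 (186.6 ± 2.16), BOP1 (37.4 ± 3.76), HSBP1 (14.9 ± 0.44), DGAT1 (11.7 ± 0.75), FBXW7 (4.05 ± 0.10), HSF4 (3.50 ± 0.24), SIRT1 (2.96 ± 0.052) and HSF2 (2.94 ± 0.0070; SD, n = 2). There SIRT1 and HSF2 overlapped, and the other neighbours did not. HSF1 was above 92.7% of all tested genes per length in WT and above 98.9% in HSF1-pLVX cells. FBXW7 and HSF4 both moved past SIRT1, and HSBP1 past DGAT1.

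FBXW7 (ENSG00000109670.13, minus strand, chr4:152321259-152536101) was measured at 18.4 and 21.7 CPM in WT and at 40.9 and 42.4 CPM in HSF1-pLVX cells. The HSF1-pLVX libraries lay above both WT libraries with a gap wider than that between replicates. Its log2 fold change was 1.05 ± 0.10 (SE), with a 95% confidence interval of 0.83 to 1.27 and an adjusted p of 5.01e-07 in edgeR's quasi-likelihood test. The mean rose 2.08-fold. Its antisense gene FBXW7-AS1, which shares 127 exon bases with it, held 0 counts in both WT libraries and 3 and 1 in HSF1-pLVX cells.

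HSBP1 (ENSG00000230989.6, plus strand, chr16:83807843-83819737) was measured at 150.1 and 154 CPM in WT and at 145 and 139 CPM in HSF1-pLVX cells. The log2 fold change was -0.10 ± 0.085 (SE), with a 95% confidence interval of -0.28 to 0.09 and an adjusted p of 0.335 in edgeR's quasi-likelihood test. On the linear scale this interval runs from 0.824-fold to 1.06-fold. Its related gene HSBP1L1 did not pass the threshold either, at a log2 fold change of 0.03 (adjusted p = 0.824 in edgeR's quasi-likelihood test).

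SIRT1 (ENSG00000096717.11, plus strand, chr10:67884669-67918390) was measured at 15.0 and 18.6 CPM in WT and at 13.6 and 13.3 CPM in HSF1-pLVX cells. The gap between the groups was smaller than that between the WT replicates, which differed by 1.24-fold. The log2 fold change was -0.32 ± 0.13 (SE), with a 95% confidence interval of -0.59 to -0.05 and an adjusted p of 0.0393 in edgeR's quasi-likelihood test. The call was lost with library size as the only normalization (adjusted p = 0.127), with DESeq2's Wald test (adjusted p = 0.158), and without WT replicate 2 (log2 fold change -0.17, adjusted p = 0.326), HSF1-pLVX replicate 1 (-0.33, adjusted p = 0.101) or HSF1-pLVX replicate 2 (-0.29, adjusted p = 0.229) in edgeR's test.

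**Figure D2:**
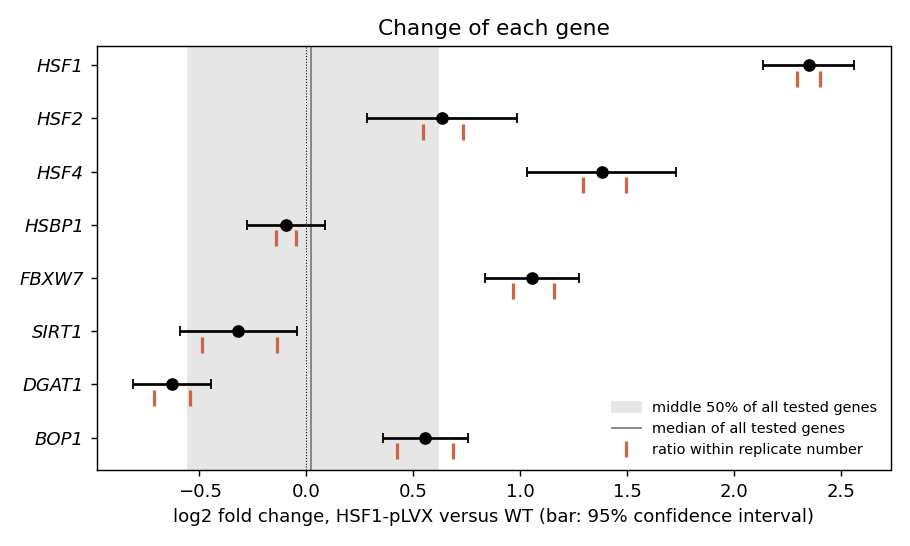
Fitted log2 fold change of each of the 8 genes, HSF1-pLVX versus WT (black points), with 95% confidence intervals, orange ticks for the log2 ratio of same-numbered libraries, and a grey band over the middle 50% of all tested genes. HSF1, HSF4 and FBXW7 lie wholly to the right of the band, while the intervals of HSF2, SIRT1, DGAT1 and BOP1 overlap it and HSBP1 lies within it.

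BOP1 and DGAT1 flank HSF1 on chromosome 8. BOP1 (ENSG00000261236.7, minus strand, chr8:144262102-144291370) lies head to head with HSF1, with 220 bases between their counted spans. DGAT1 (ENSG00000185000.11, minus strand, chr8:144314584-144326910) meets HSF1 tail to tail, and their last exons share 139 bases on opposite strands, 2.62% of the counted length of HSF1 and 3.36% of that of DGAT1. The strand setting of the counting is not stated, so reads within these bases cannot be told apart.

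BOP1 was measured at 96.4 and 92.8 CPM in WT and at 129 and 149 CPM in HSF1-pLVX cells, all of the latter above the former. Its log2 fold change was 0.56 ± 0.093 (SE), with a 95% confidence interval of 0.36 to 0.75 and an adjusted p of 0.000107 in edgeR's quasi-likelihood test. DGAT1 was measured at 75.4 and 73.5 CPM in WT and at 46.0 and 50.4 CPM in HSF1-pLVX cells, all of the latter below the former. Its log2 fold change was -0.63 ± 0.085 (SE), with a 95% confidence interval of -0.81 to -0.45 and an adjusted p of 1.52e-05 in edgeR's quasi-likelihood test. The genes on the flanks of HSF1 thus moved in opposite directions, by 1.47-fold upwards for BOP1 and by 1.54-fold downwards for DGAT1. Each moved by less than HSF1, whose counts do not separate the transcript of the vector from that of the endogenous gene.

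Among the 44 tested genes within 500 kb of HSF1, BOP1 and DGAT1 included, 14 (31.8%) were higher in HSF1-pLVX cells and 14 (31.8%) lower, close to the 32.7% and 33.2% of all tested genes, with a median log2 fold change of -0.02. The number of higher genes was smaller without HSF1-pLVX replicate 2, and by a larger share than the number of higher genes among all tested genes. Within 100 kb, 9 genes were tested, of which BOP1 was the 1 that rose and 3 fell, with a median of -0.22. Beyond BOP1, SCX, a tendon transcription factor gene that lies within the span of BOP1 on the other strand, gave -0.37 (adjusted p = 0.107 in edgeR's quasi-likelihood test) and MROH1 gave -0.15 (adjusted p = 0.126). The pseudogene TSSK5P fell by 1.26 (adjusted p = 0.001). On the side of DGAT1, SLC52A2, a riboflavin transporter gene, fell from 129 and 118 CPM to 55.2 and 55.1 CPM, a log2 fold change of -1.17 (adjusted p = 2.89e-08). FBXL6, an F-box protein gene whose span lies within that of SLC52A2 on the other strand, gave -0.22 (adjusted p = 0.0548) and ADCK5 gave -0.16 (adjusted p = 0.241).

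The largest falls within 500 kb were in the cytolinker genes EPPK1 and PLEC. EPPK1 fell from 97.0 and 88.3 CPM to 7.81 and 5.79 CPM, a log2 fold change of -3.75 (adjusted p = 1.41e-11 in edgeR's quasi-likelihood test). PLEC fell from 5468 and 4844 CPM to 1992 and 2039 CPM, a log2 fold change of -1.35 (adjusted p = 1.48e-07). The largest rises were in genes with few counts, SMPD5 with 0 and 1 counts in WT and 13 and 24 in HSF1-pLVX cells, and SPATC1 with 2 and 1 against 19 and 17.

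**Figure D3:**
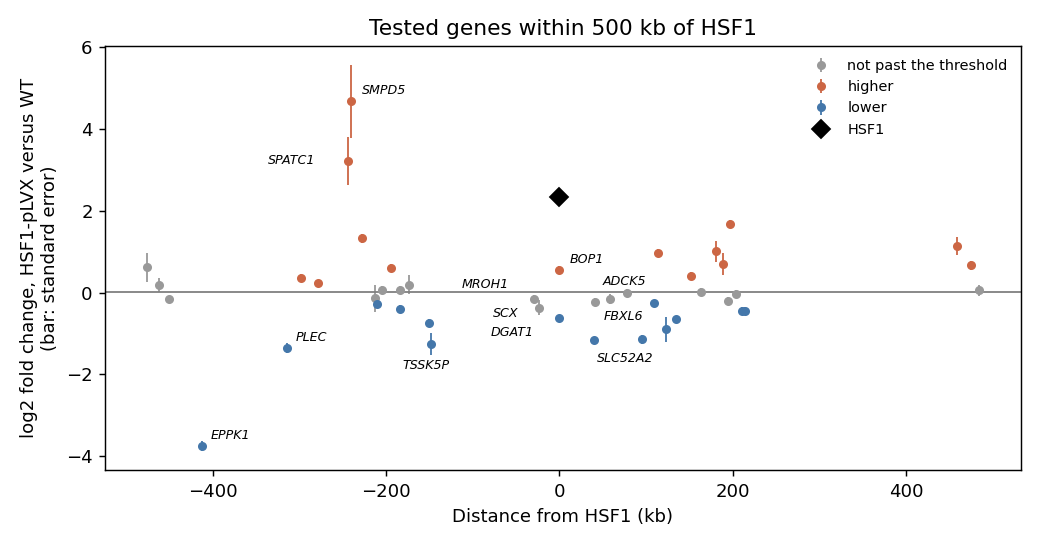
Log2 fold change, HSF1-pLVX versus WT, of the 44 tested genes within 500 kb of HSF1 against their distance from it in kb (negative on the side of BOP1), with bars for the standard error, colours for the call and a line at the median of all tested genes. HSF1 (black diamond, 2.35), whose counts include any transcript of the vector, stands above BOP1 (0.56) and DGAT1 (-0.63). Genes that rose and genes that fell lie on both sides.

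The other heat shock factors and regulators had their own neighbours within 100 kb, to be read beside the 32.7% of all tested genes that were higher and the 33.2% that were lower. For HSF4, 16 neighbours were tested, of which 6 rose and 3 fell, shares near those of all tested genes for the rises and below them for the falls, with a median log2 fold change of 0.25 against 1.38 for HSF4. For HSF2, 3 neighbours were tested, of which 0 rose and 2 fell. For SIRT1, 4 were tested, of which 2 rose and 0 fell. FBXW7 and HSBP1 each had 2 tested neighbours, 1 of which rose and 1 fell.

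The rest of the HSF1 pathway was followed in lists chosen by role, with earlier results of these data known. Their shares are therefore a description and no test of the pathway. In HSF1-pLVX cells 10 of 19 tested genes for chaperones and other partners of HSF1 rose and 4 fell, with a median log2 fold change of 0.38. These shares, 52.6% and 21.1%, stand beside 32.7% and 33.2% of all tested genes. The TRiC chaperonin, which can bind HSF1, accounted for 6 of the rises, led by CCT8 (0.89 ± 0.089, adjusted p = 6.46e-07 in edgeR's quasi-likelihood test) and CCT3 (0.67 ± 0.094, adjusted p = 2.19e-05), while TCP1 (0.12) and CCT2 (0.03) did not pass the threshold. The cytosolic HSP90 genes went apart: HSP90AB1 rose from 1292 and 1151 CPM to 1949 and 2012 CPM (0.70 ± 0.11), and HSP90AA1, the stress-inducible form, fell from 1509 and 1369 CPM to 936 and 894 CPM (-0.65 ± 0.10). VCP, a AAA ATPase of protein quality control, fell (-0.73), and so did STUB1, a chaperone-associated ubiquitin ligase (-0.59).

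Of 23 kinases and phosphatases of HSF1 all were tested, and 4 rose and 12 fell (17.4% and 52.2%), with a median log2 fold change of -0.26. CAMK2B rose from 1.81 and 1.72 CPM to 20.7 and 26.7 CPM (3.74 ± 0.18, adjusted p = 4.5e-10 in edgeR's quasi-likelihood test). PLK1, a mitotic kinase, rose from 14.9 and 13.1 CPM to 61.0 and 44.9 CPM (1.92 ± 0.14), and PRKCA rose by 0.79. DYRK2 fell by 1.52 on the log2 scale, MAPK3, which encodes ERK1, by 1.27, and GSK3B, which can phosphorylate HSF1 at repressive sites, by 0.99. MTOR also fell (-0.55). PRKAA2, which lies outside the naming rule because of its low counts, held 10 and 17 counts in WT and 2 and 3 in HSF1-pLVX cells.

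Of 18 enzymes and proteins of acetylation, SUMO and ubiquitin, the systems to which SIRT1 and FBXW7 belong, 5 rose and 7 fell (27.8% and 38.9%), with a median log2 fold change of -0.18. The number that rose was smaller without HSF1-pLVX replicate 2, and by a larger share than the number of rises among all tested genes. USP28, a deubiquitinase that counters FBXW7 on shared substrates, rose by 0.83 ± 0.091 (adjusted p = 1.65e-06 in edgeR's quasi-likelihood test), from 28.4 and 25.996 CPM to 48.2 and 48.8 CPM. NAMPT, which makes the NAD precursor that SIRT1 depends on, rose from 82.3 and 86.4 CPM to 122 and 132 CPM (0.59). SKP1, the SCF adaptor for FBXW7, fell from 268 and 279 CPM to 180 and 166 CPM (-0.66), while CUL1, the SCF scaffold, rose by 0.22 and RBX1, its RING subunit, gave 0.14 and did not pass the threshold. RPS19BP1, which encodes an activator of SIRT1, fell (-0.35), and CCAR2, which encodes an inhibitor of SIRT1, gave 0.05 and did not pass the threshold. HDAC9 fell by 1.795 and NEDD4, a ubiquitin ligase, by 0.71. The acetyltransferase genes EP300 and CREBBP gave -0.20 each, with adjusted p of 0.0523 and 0.0501 in edgeR's test.

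Of 18 transcription cofactors of HSF1, 11 rose and 2 fell (61.1% and 11.1%), with a median log2 fold change of 0.75. Of the 18 genes, 6 rose by more than 2-fold, beside 14.9% of all tested genes. The number that fell was smaller without HSF1-pLVX replicate 2, and by a larger share than the number of falls among all tested genes. SHCBP1 rose from 8.15 and 6.51 CPM to 25.5 and 23.1 CPM (1.73 ± 0.13, adjusted p = 4.23e-08 in edgeR's quasi-likelihood test). ZC3HAV1, also known as PARP13, rose from 78.8 and 95.9 CPM to 246 and 252 CPM (1.51), and PARP1 rose by 0.97. The genes for both subunits of the histone chaperone FACT rose, SSRP1 from 155 and 141 CPM to 393 and 404 CPM (1.43) and SUPT16H by 0.89. The replication protein A genes RPA1 and RPA3 rose by 0.68 and 1.08, and RPA2 gave 0.21 and did not pass the threshold. MTA1 rose from 56.3 and 56.6 CPM to 110.3 and 119.5 CPM (1.03). PPARGC1A, which lies outside the naming rule because of its low counts, gave the largest rise of the list (2.87). It held 0 and 5 counts in WT and 16 and 29 in HSF1-pLVX cells. MED1 and CDK9 fell (-0.47 and -0.39).

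Of 31 classical HSF1 target genes 29 were tested, and 16 rose and 7 fell (55.2% and 24.1%), with a median log2 fold change of 0.25. HSP90AA1, HSP90AB1, HSPA8, DNAJB1, FKBP4, PTGES3, HSPA1A and HSPA1B are also in the list of chaperones above. The mitochondrial chaperonin pair led the rises, HSPD1 from 171 and 167 CPM to 591 and 615 CPM (1.84 ± 0.094, adjusted p = 6.97e-10 in edgeR's quasi-likelihood test) and HSPE1 from 23.7 and 21.4 CPM to 50.8 and 55.1 CPM (1.23). HSPA4L rose from 25.997 and 26.9 CPM to 66.0 and 57.1 CPM (1.22), and the small heat shock protein gene HSPB1 (0.71) and HSPH1 (0.75) rose as well. Of the other small heat shock protein genes in the list, CRYAB rose (0.72) and HSPB8, which lies outside the naming rule because of its low counts, fell by 1.70, from 45 and 61 counts to 22 and 17, the largest fall of the list. DNAJB6 fell from 198 and 219 CPM to 103 and 99.7 CPM (-1.04) and ZFAND2A by 1.03. HSPA8 (-0.13) and BAG3 (-0.15) did not pass the threshold. The stress-inducible HSPA1A and HSPA1B, near-identical copies whose reads may not be assignable to either, were listed at 0 counts in all 4 libraries, and no level is given for them.

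**Figure D4:**
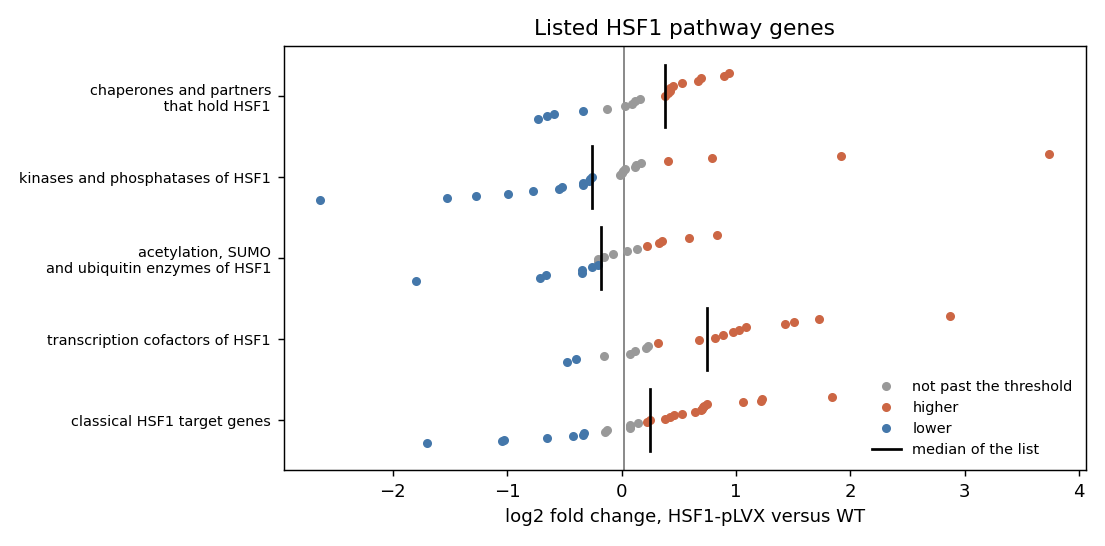
Log2 fold change, HSF1-pLVX versus WT, of each tested gene in 5 lists of HSF1 pathway genes, 1 point per gene coloured by its call, with a black line at the median of the list and a grey line at the median of all tested genes. The medians run from -0.26 for the kinases and phosphatases to 0.75 for the transcription cofactors, and each list holds genes that rose and genes that fell. The label "that hold HSF1" stands for the chaperones and other partners of HSF1.

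The study's own rule takes ratios of the deposited normalized values within each replicate number and asks for a ratio above 2.0 in both, which 5.00% of the 22321 deposited rows passed. Of the 8 genes, HSF1 (ratios 4.73 and 5.22) and HSF4 (2.44 and 2.23) passed it. FBXW7 lay just below it, at 2.11 and 1.90. The ratios were 1.36 and 1.56 for HSF2, 1.30 and 1.59 for BOP1, 0.936 and 0.899 for HSBP1, 0.887 and 0.721 for SIRT1, and 0.595 and 0.685 for DGAT1, so no gene of the 8 fell below 0.50. On this transformed scale the ratios of genes with few counts are drawn towards 1: with counts divided by size factors, plus 1, the HSF4 ratios were 2.70 and 2.42.

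The genes most like HSF1 across the 4 libraries were sought among 9112 genes of at least 10 CPM on average, by the root mean square difference of centred log2 CPM. CGAS, the cytosolic DNA sensor, was the nearest, with a difference of 0.0262 and means of 4.87 and 24.3 CPM in WT and HSF1-pLVX cells. TRABD2A (0.0299), ECHDC3 (0.031), FANCA, a Fanconi anaemia gene (0.0533), and NASP, a histone chaperone gene (0.0539), followed. With 2 groups of 2 libraries this likeness describes little more than an equal fold change, and log2 fold changes of these 5 genes lay between 2.32 and 2.44.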

How the data were processed

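RNA was sequenced as paired-end reads of 76 bp from rRNA-depleted total RNA. Per the labels and the study's methods, the authors aligned reads to hg38 with HISAT2 2.0.5, processed them with SAMtools 1.13 and counted them per gene with featureCounts 1.6.5, and deposited raw counts for 63856 genes (GENCODE 26), 5637 of them off the main chromosomes. Strand, overlap and multi-mapping settings are not given in the sources used here. The authors also deposited log2-like values normalized with DESeq2 1.32.0. Those of the 8 genes equalled a blind variance-stabilizing transformation of the counts within 9.3e-06, and were used for the study's ratio rule only.

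Samples were grouped by their titles, and all columns were assigned. Identifiers were given symbols from GENCODE 44. The test was made in edgeR 4.0.16 under R 4.3.3 (TMM, filterByExpr, quasi-likelihood test without a block, all 4 libraries, Benjamini-Hochberg adjustment). RPKM used the counted exon length. Replicates of a group differed by more than sampling noise, at a chi-square of 6.62 (WT) and 8.04 (HSF1-pLVX) per degree of freedom. On simulated counts with 200 changed genes, the test recovered 60.8% at 1.5-fold, 89.2% at 2-fold and 96.9% at 4-fold. False calls made up 4.84%, 4.42% and 3.08% of the calls. The simulation gave all genes a common spread and changed far fewer genes than were called here. These rates therefore need not hold for these data.

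The members and lists were chosen with earlier results of these data known. Besides the 8 genes, the rule named the 3 tested genes nearest to HSF1 on each side, the 2 largest rises and falls within 500 kb, up to 3 rises and 3 falls of each list with 50 or more counts in each library of the group where they were higher, and the 5 genes nearest to HSF1 in pattern. Other listed genes were named after their values were seen, to fill out a complex or pathway step. Alternatives covered normalization, the filter, DESeq2 1.42.0, the replicate block, the window and each library left out in turn. Crossed pairing was added after seeing the data.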

Additional observations from a re-analysis of the deposited data

How the results depend on the processing

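Of 80 recomputed fold changes of the 8 genes, 74 kept their direction and side of the threshold, 0 turned and 6 lost the threshold. HSF2 lost it with DESeq2's Wald test (log2 fold change 0.61, adjusted p = 0.0663). SIRT1 lost it with library size only (-0.26, adjusted p = 0.127), with DESeq2 (-0.35, adjusted p = 0.158) and without WT replicate 2 or either HSF1-pLVX library. Leaving out 1 library at a time gave SIRT1 a range of -0.45 to -0.17. The cause was not tested. The same omissions gave 8 to 14 higher genes within 500 kb of HSF1, 2 to 5 higher genes among acetylation, SUMO and ubiquitin proteins, and 1 to 3 lower genes among transcription cofactors. The 100 kb window, which holds fewer genes, gave 1 higher and 3 lower genes. Of 162 recomputed counts of lists and neighbours, 5 moved by over 1.5 times. Of 16 levels per length, 5 moved by more than 1 SD with library size only, which put the median log2 fold change of all genes at 0.08 instead of 0.02.

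With the replicate number as a block, edgeR called 5138 genes higher and 5171 lower, against 5175 and 5253 without it, and changed no call of the 8 genes. The correlation of deviations between same-numbered libraries was 0.000143 for all 15830 genes and -0.113 for the 9672 genes of at least 8 CPM. With only 2 libraries in each group, this cannot show whether same-numbered libraries came from a shared culture. The crossed pairing, added after seeing the data, gave 5429 and 5487. On simulated counts of this size, 60.8% of 1.5-fold changes were recovered.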
